A study of Homo sapiens with 22 samples.

Results

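FOXF1 and FENDRR are a divergent pair of genes on chromosome 16: a protein-coding gene and a long noncoding RNA that start close to each other and are transcribed in opposite directions. They were chosen by name, with earlier results of these data known, and they are 2 of the 2221 genes in a table of 8 glioblastoma cell lines. A second table of 3 further lines lists 5383 genes and holds FOXF1 but not FENDRR, so FENDRR was not analysed in those lines. FOXF1 encodes a forkhead transcription factor. In vertebrate embryos it acts in the mesenchyme of the lung and gut, downstream of Hedgehog signalling, and it is also used in endothelium. FENDRR is the noncoding RNA of the same locus. In mice its loss disturbs the heart and the body wall, and the RNA binds chromatin complexes of the Polycomb and Trithorax groups.

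RNA of 11 established human glioblastoma lines was sequenced without any treatment, in 2 libraries per line and 22 in all. KNS-42, LN-18, LN-229 and A-172 grew in DMEM, T98G, U-138MG, U-87MG and AM-38 in EMEM, and KALS-1, SNU-1105 and SNU-466 in RPMI, with 20% serum for AM-38 and 10% for every other line. The sources do not say if the pair of libraries of a line stems from different cultures. Each p-value therefore covers variation among libraries alone, and that variation may be technical. Libraries were made from poly(A) RNA and kept the strand, and the annotated spans of FOXF1 and FENDRR overlap neither each other nor any further annotated gene. Library totals ran from 17117491 to 21011463 reads in the 8 lines. How the authors chose the listed genes is not known, so each share of genes called and each place in a ranking describes this selection and not the transcriptome. Listed genes hold 5.81% to 10.2% of these totals. Of the 2095 tested genes, 99.0% were called as differing among the 8 lines, FOXF1 and FENDRR included, so that a difference as such sets neither apart in this table.

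Few glial and neural markers were listed for the 8 lines. Of 9 glial and neural genes, only SOX2, a factor of neural stem cells, had a row in the 8-line table. In LN-18 it was at 0 and 0.204 CPM (the count scaled to the library total) and in T98G at 0.0530 and 0 CPM, against 783 and 818 CPM in KNS-42. SOX2 was also at most 0.454 CPM in each library of U-87MG and U-138MG. It was at 3.09 and 2.14 CPM in KALS-1, 100 and 118 CPM in LN-229, and 82.0 and 130 CPM in SNU-1105.

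FENDRR (ENSG00000268388) lies on the minus strand of chromosome 16, from 86474529 to 86509099, and FOXF1 (ENSG00000103241) on the plus strand from 86510527 to 86515418 (GENCODE 29, GRCh38). The outermost annotated starts are 1428 bases apart. From the RefSeq start of FENDRR, at 86508860, the distance to the start of FOXF1 is 1667 bases. The promoter window of FENDRR is shown because it faces FOXF1 and because the levels of the 2 genes are compared below. It covers chr16:86508811-86509110 on the minus strand (RefSeq, GRCh38.p14), from 250 bases before the annotated start to 50 bases after it. Capitals mark a forkhead motif and the GC boxes.
FENDRR: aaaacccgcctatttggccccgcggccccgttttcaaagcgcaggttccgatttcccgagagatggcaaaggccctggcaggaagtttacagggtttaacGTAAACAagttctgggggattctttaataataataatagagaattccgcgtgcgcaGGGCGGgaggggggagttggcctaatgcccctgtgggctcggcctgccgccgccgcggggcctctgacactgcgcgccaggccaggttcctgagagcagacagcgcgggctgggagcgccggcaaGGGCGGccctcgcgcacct

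The window held 1 match to the forkhead motif GTAAACA, at position -150 relative to the RefSeq start, and none to the variant GTAAATA, with both strands searched. By the outermost GENCODE start, at 86509099, nearly all of the window lies inside FENDRR. GTAAACA occurred in 3.42% of the 35116 promoter windows of that length, and either forkhead form in 5.97%. The GC box GGGCGG matched at positions -94 and 31, and 45.0% of windows hold it. The GLI core CCACCCA and the motif TATAAA had no match, and 9.19% and 11.5% of windows have one. The window held 26 CG dinucleotides, against a median of 14, and 30.1% of windows held as many. None of these matches overlaps another, and they are a description of the letters only.

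FOXF1 was highest in LN-18 and T98G, intermediate in KNS-42, SNU-1105 and U-87MG, and near 0 in U-138MG. Levels are given in FPKM, which divide the reads by gene length and library total, so the 2 genes can be compared. FOXF1 was at 103.63 and 103.94 FPKM in LN-18 (6983 and 7190 reads), 34.41 and 59.33 FPKM in T98G, and 4.62 and 5.5 FPKM in KNS-42. It was at 4.84 and 1.55 FPKM in SNU-1105, 2.72 and 2.24 FPKM in U-87MG, 0.41 and 0.2 FPKM in KALS-1, and 0.18 and 0.16 FPKM in LN-229. U-138MG had 1 read in each library. LN-18 and T98G thus stood above every library of the other 6 lines, and KALS-1, LN-229 and U-138MG stood below every library of the other 5.

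In the order of means, FOXF1 was at 103.8 ± 0.216 FPKM in LN-18, 46.9 ± 17.6 in T98G, 5.06 ± 0.625 in KNS-42, 3.19 ± 2.32 in SNU-1105, 2.48 ± 0.338 in U-87MG, 0.309 ± 0.150 in KALS-1, 0.167 ± 0.0121 in LN-229 and 0.0142 in U-138MG (SD, n = 2 each). Differences between lines were tested with the edgeR quasi-likelihood test, with p-values adjusted by the Benjamini-Hochberg method over all tested genes, and called at an adjusted p under 0.05 and a log2 fold change of at least 1. FOXF1 was called in 25 of the 28 pairs of lines, where 57.8% of all tests of a gene in a pair were called, and 40.5% to 76.6% of genes in any one pair. Among neighbours in the order, T98G was above KNS-42 (log2 fold change 3.21, SE 0.38, adjusted p = 5.17e-07; 62.8% of genes called). U-87MG was above KALS-1 (log2 fold change 3.02, SE 0.46, adjusted p = 1.07e-05; 68.5% called). LN-229 was above U-138MG (log2 fold change 3.40, SE 1.06, adjusted p = 0.0108; 48.2% called), a contrast of 24 reads with 2.

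LN-18 was above T98G by a log2 fold change of 1.15 (SE 0.35, adjusted p = 0.0115; 42.5% of genes called). That call did not hold with TMM scaling (0.85, adjusted p = 0.0512), which moves the median of all genes in this contrast from 0.42 by -0.31, nor without either LN-18 library (1.15 and 1.14, adjusted p = 0.0552 both times, with the fold almost as before) or without the first T98G library (0.81, adjusted p = 0.0622). SNU-1105 was not told apart from KNS-42 above it or from U-87MG below it (adjusted p = 0.135 and 0.438; 50.2% and 45.8% called). KNS-42 was called above U-87MG with a fold barely over the threshold of 1 (log2 fold change 1.03, SE 0.37, adjusted p = 0.0225; 54.8% called). With TMM scaling the steps from KNS-42 to SNU-1105 and from SNU-1105 to U-87MG were 0.33 and 0.63, which together fall short of that threshold. No difference beyond the spread was found between KALS-1 and LN-229 (adjusted p = 0.219; 62.1% called), although with TMM scaling this last contrast was called (log2 fold change 1.37, adjusted p = 0.0485). The place of SNU-1105 rests on its first library. The libraries of that line differed 3.12-fold in FOXF1, and 2.31% of its genes with at least 50 reads differed as much. Without the first library, KNS-42 was above SNU-1105 (log2 fold change 1.71, adjusted p = 0.000446) and SNU-1105 lay under U-87MG (-0.68, adjusted p = 0.110). In bulk RNA, fewer cells that express a gene and less of its RNA per cell cannot be told apart.

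**Figure D1:**
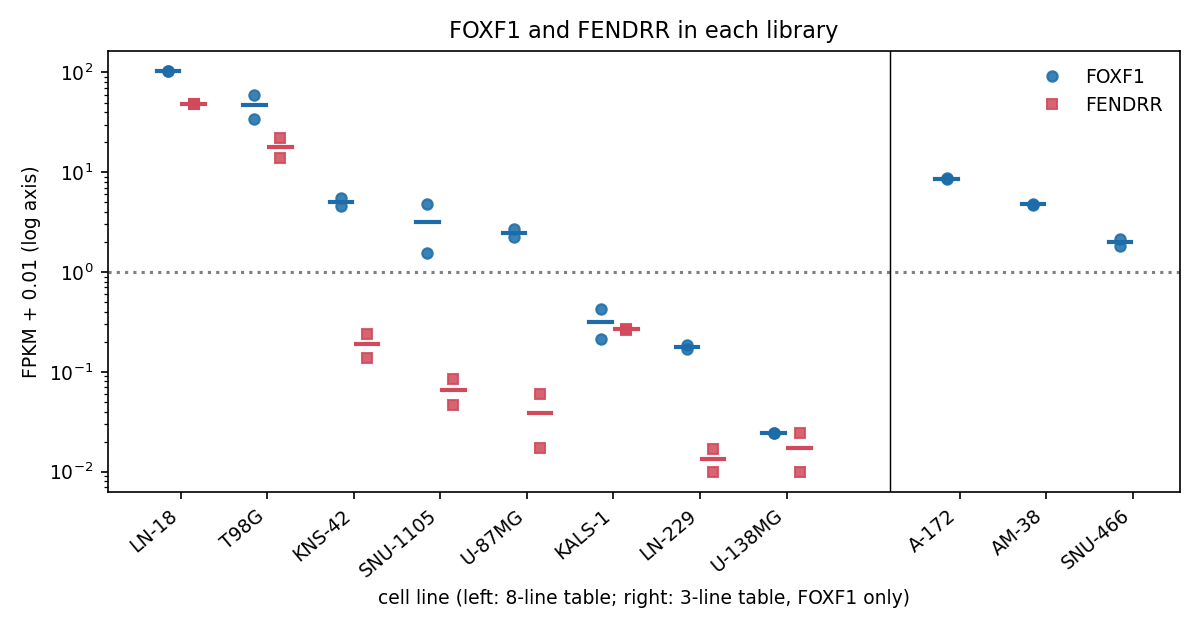
FPKM + 0.01 (log axis) of FOXF1 (circles) and FENDRR (squares) in every library, with the mean of the 2 libraries as a bar, for the 8 lines of the first table and, right of the vertical line, the 3 lines of the second. LN-18 and T98G are the lines with both genes above the dotted line at 1 FPKM, whereas KNS-42, SNU-1105 and U-87MG have FOXF1 above it and FENDRR at 0.23 FPKM or less.

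FENDRR was high in the 2 lines with the most FOXF1 and near 0 elsewhere. It was at 47.97 and 48.16 FPKM in LN-18 (6318 and 6512 reads) and 13.74 and 22.09 FPKM in T98G (1783 and 2602 reads). KALS-1 followed with 0.25 and 0.26 FPKM (30 and 35 reads), then KNS-42 with 0.13 and 0.23 FPKM (17 and 31 reads). SNU-1105 had 10 and 5 reads, U-87MG 7 and 1, U-138MG 0 and 2, and LN-229 1 and 0. A count of 0 allows up to 3 reads, which for FENDRR is 0.0208 to 0.0255 FPKM in these libraries and covers counting error only. The libraries of LN-18 and T98G therefore stood clear of all others, and those of SNU-1105, U-87MG, U-138MG and LN-229 held at most 10 reads each.

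The mean was 48.1 ± 0.135 FPKM in LN-18, 17.9 ± 5.91 in T98G, 0.257 ± 0.00359 in KALS-1 and 0.179 ± 0.0730 in KNS-42 (SD, n = 2 each). FENDRR was called in 23 of the 28 pairs of lines by the same test, where 57.8% of all tests of a gene in a pair were called. LN-18 was above T98G (log2 fold change 1.42, SE 0.30, adjusted p = 0.000641), where 42.5% of genes were called. T98G was above KALS-1, the next line (6.12, SE 0.39, adjusted p = 2.58e-10), where 46.7% of genes were called. KALS-1 and KNS-42 did not differ beyond their spread (0.52, SE 0.43, adjusted p = 0.286; 62.8% called), although TMM and RLE scaling called KALS-1 higher (1.14 and 1.03, adjusted p = 0.0199 and 0.0329). KNS-42 was above SNU-1105 (1.68, SE 0.54, adjusted p = 0.0121; 50.2% called), a call lost without the second library of either line (adjusted p = 0.146 and 0.108). SNU-1105 was not told apart from U-87MG (adjusted p = 0.321), and none of the 3 pairs among U-87MG, U-138MG and LN-229 was called (adjusted p from 0.0803 to 0.706). With 15 reads over both libraries, SNU-1105 was called above U-138MG with 2 (2.77, SE 0.99, adjusted p = 0.0254, 43.7% called). It was also called above LN-229 with 1 read (3.63, SE 1.12, adjusted p = 0.0104, 44.6% called). By counting alone, LN-18 held 13462 times the FENDRR of LN-229 (95% interval 2416 to 531772), a ratio that rests on 1 read in LN-229.

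The joint state divided the 8 lines into 3 patterns. A gene was taken as on where both libraries reached 1 FPKM, as off where both were under 0.1 FPKM and as low in between. Both genes were on in 2 lines, LN-18 and T98G. FOXF1 was on without FENDRR in 3 lines: in SNU-1105 and U-87MG FENDRR was off, and in KNS-42 it was low. Neither was on in 3 lines, with both low in KALS-1, both off in U-138MG, and FOXF1 low beside FENDRR off in LN-229. No line had FENDRR on without FOXF1. With on set at 2 FPKM, FOXF1 was on without FENDRR in 2 lines and neither was on in 4, since the second SNU-1105 library was at 1.55 FPKM. Set against the mean of the other 7 lines, FOXF1 was higher in LN-18 by a log2 fold change of 6.61 (SE 0.22, adjusted p = 1.89e-14) and FENDRR by 9.05 (SE 0.21, adjusted p = 3.39e-16), where 31.0% of genes were called higher. In T98G the same contrast gave 5.29 for FOXF1 (SE 0.23, adjusted p = 4.86e-13) and 7.42 for FENDRR (SE 0.22, adjusted p = 1.38e-15), where 20.7% were.

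**Figure D2:**
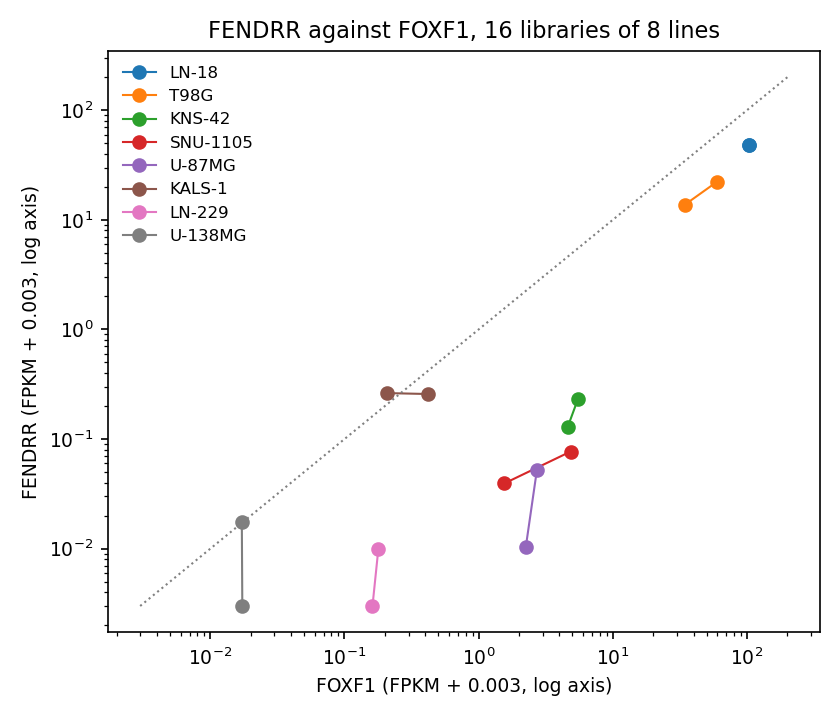
FENDRR against FOXF1 in the 16 libraries of 8 lines (FPKM + 0.003 on log axes), with a line joining the 2 libraries of a cell line and a dotted line where the levels are equal. LN-18, T98G and KALS-1 lie near the dotted line, while KNS-42, SNU-1105 and U-87MG lie far under it, with FOXF1 from 23.9 to 309 times FENDRR per length.

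The ratio of the 2 RNAs differed among lines even where both were detected. FENDRR made up 47.5% of the reads of the 2 genes in each LN-18 library (exact Clopper-Pearson 95% intervals 46.6% to 48.4% and 46.7% to 48.4%). In T98G it made up 43.8% (42.3% to 45.4%) and 42.1% (40.9% to 43.4%). Per length, FOXF1 was 2.16 times FENDRR in both LN-18 libraries, and 2.50 and 2.69 times in T98G. The T98G libraries differed 1.72-fold in FOXF1 and 1.61-fold in FENDRR, so the level moved more between them than the ratio. In that line, 56.1% of genes with at least 50 reads lay within 1.5-fold between the libraries, against at least 71.6% in each other line.

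In KALS-1, with 55 and 49 reads of the pair, the FENDRR share was 54.5% (40.6% to 68.0%) and 71.4% (56.7% to 83.4%), so that per length the RNAs were about even, with FOXF1 at 1.63 and 0.782 times FENDRR. KNS-42 had FENDRR shares of 5.11% (3.0% to 8.05%) and 7.56% (5.19% to 10.6%), and per length FOXF1 was 36.3 and 23.9 times FENDRR. SNU-1105 had shares of 2.90% (1.40% to 5.27%) and 4.39% (1.44% to 9.94%), and U-87MG of 3.45% (1.40% to 6.98%) and 0.629% (0.0159% to 3.45%). The intervals of these 3 lines lay below those of LN-18, T98G and KALS-1 in every library. LN-229, with 14 and 11 reads of the pair, had intervals up to 33.9%, and the 1 and 3 reads of U-138MG allow almost any share.

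Across the 4 lines with at least 10 reads of both genes in both libraries, the log2 ratio of FENDRR to FOXF1 in FPKM was -0.17 ± 0.75 in KALS-1, -1.11 ± 0.00105 in LN-18, -1.37 ± 0.071 in T98G and -4.88 ± 0.43 in KNS-42 (SD, n = 2 each). The ratio differed among these lines (range of means 4.71; exact permutation test over the 8 libraries, p = 0.00952, the smallest p that the 2520 arrangements allow). Among these 4 lines KNS-42 had by far the lowest ratio, though the test covers any difference and not this placing. SNU-1105 and U-87MG, left out for too few FENDRR reads, had lower log2 ratios still (-6.03 and -5.41, and -5.77 and -8.27).

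**Figure D3:**
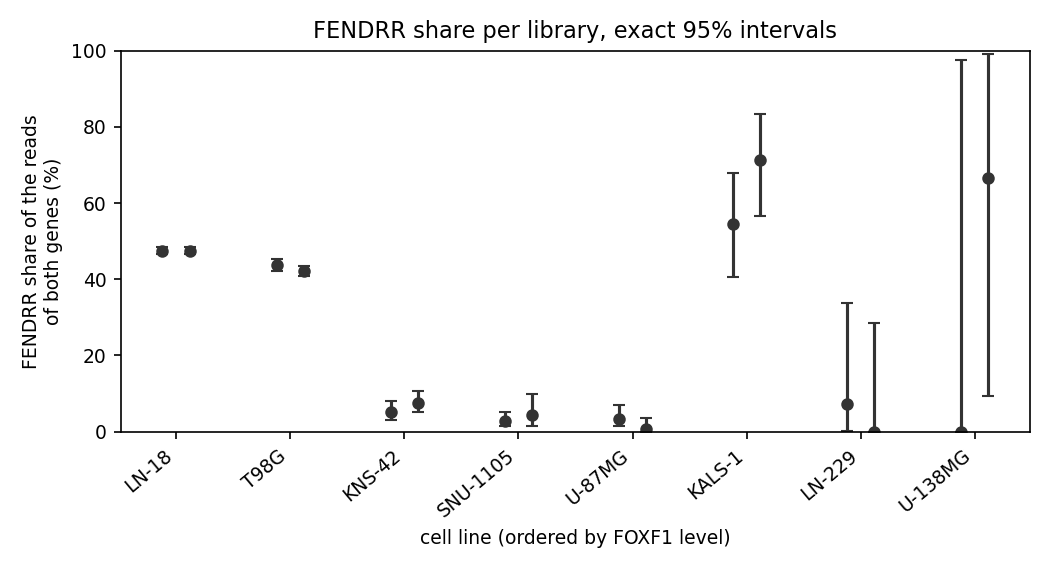
FENDRR share of the reads of FOXF1 and FENDRR (%), 1 point per library, with exact 95% binomial intervals that cover counting error only. The libraries of LN-18 and T98G sit between 42.1% and 47.5% and those of KALS-1 at 54.5% and 71.4%, whereas KNS-42, SNU-1105 and U-87MG are at 7.56% or less, and LN-229 and U-138MG have too few reads to place.

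The neighbourhood of the pair showed another noncoding RNA with the same high lines, which genes on other chromosomes also shared (below). Of 68 annotated genes that start within 1 Mb of FOXF1, 3 had a row in the 8-line table, and none of the 13 protein-coding ones did. LINC01081, a noncoding RNA on the minus strand with its start at position -209224 relative to that of FOXF1, lies in a region that in the human lung carries distal enhancers of FOXF1. It had 233 and 173 reads in T98G and 128 and 132 in LN-18, against 2 and 6 in U-87MG, 2 and 2 in KNS-42, 0 and 2 in U-138MG, and 0 in all libraries of KALS-1, LN-229 and SNU-1105. In FPKM this is 5.61 ± 0.794 in T98G and 3.35 ± 0.0107 in LN-18, against 0.0992 ± 0.0713 in U-87MG (SD, n = 2 each). T98G was above U-87MG (log2 fold change 5.78, SE 0.51, adjusted p = 4.42e-08) and so was LN-18 (5.04, SE 0.51, adjusted p = 2.32e-07), with 69.0% and 74.9% of genes called. LN-18 and T98G did not differ beyond their spread for it (adjusted p = 0.0895), although FENDRR was higher in LN-18. FOXF1 was also called higher in LN-18, but that call was lost in some alternatives (above).

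FOXC2-AS1, a short noncoding RNA antisense to the forkhead gene FOXC2 and 57234 bases beyond the start of FOXF1, had other high lines. It had 15 and 21 reads in U-87MG, 15 and 6 in U-138MG, 6 and 3 in SNU-1105 and 5 and 3 in LN-229, and 0 in all libraries of LN-18, T98G, KALS-1 and KNS-42. U-87MG was at least 11.5-fold above LN-18 and at least 10.7-fold above T98G, taking 3 reads over the 2 libraries of a line as the floor. Reads were thus counted for it in U-138MG, where FOXF1 was off, and in U-87MG and SNU-1105, where FOXF1 was on. Whether the counting used the strand is not stated, so reads of FOXC2 itself cannot be told apart from those of the antisense RNA. The third listed neighbour, the noncoding gene ENSG00000270020, had at most 10 reads in a library and was not tested.

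**Figure D4:**
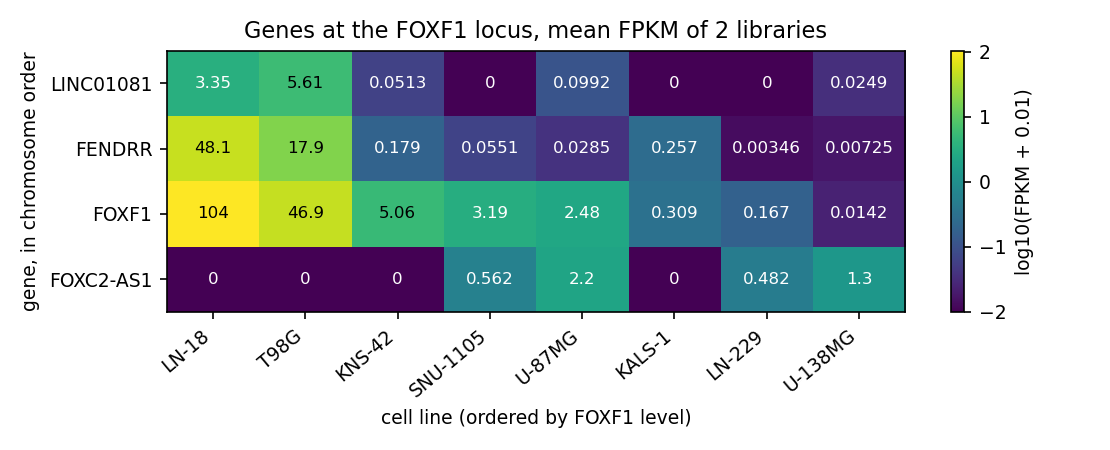
Mean FPKM of 2 libraries for LINC01081, FENDRR, FOXF1 and FOXC2-AS1, in their order along the chromosome, in 8 lines ordered by FOXF1 level; colour shows log10(FPKM + 0.01). LINC01081 and FENDRR are above 1 FPKM in LN-18 and T98G and at 0.257 FPKM or less elsewhere, and FOXC2-AS1 is at 0 in both of those lines.

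Hedgehog genes, which act upstream of FOXF1 in embryonic mesenchyme, did not have their highest level in LN-18 or T98G. Of 17 genes of the list, 3 had a row in the 8-line table, and none rose in LN-18 or T98G, where 31.0% and 20.7% of tested genes were called higher, and 24.9% and 30.1% lower, than the mean of the other lines. GLI2, a transcriptional effector of the pathway, was called lower in LN-18 at 0.850 ± 0.205 FPKM and in T98G at 0.701 ± 0.125 FPKM (log2 fold change -1.37 and -1.68, adjusted p = 3.09e-06 and 4.12e-07), against 12.1 ± 0.328 FPKM in KNS-42. GLI2 was lower still in U-138MG, where FOXF1 was off, at 0.503 ± 0.0469 FPKM (log2 fold change -2.23, adjusted p = 1.41e-08). In that line 16% of tested genes were called lower. GLI3, largely a repressor in the absence of ligand, was at 2.54 ± 0.182 FPKM in LN-18 and 3.39 ± 0.811 FPKM in T98G, against 10.9 ± 1.99 FPKM in SNU-1105. Its lowest level was in KALS-1, where FOXF1 was low, at 0.0922 ± 0.0311 FPKM. SCUBE2, which helps to release Hedgehog ligands, was called lower in T98G, with 0 and 1 reads, and was at 2.39 ± 0.373 FPKM in KNS-42. The median log2 fold change of these 3 genes was -0.90 in LN-18 and -1.68 in T98G, and that of all tested genes -0.44 and -1.03.

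Factors of gut and lung mesenchyme gave 1 gene that shared the high lines of the pair. GATA4, a factor of heart and gut development, was at 1.44 ± 0.207 FPKM in LN-18 and 1.37 ± 0.324 FPKM in T98G (135, 113, 96 and 122 reads), and had at most 2 reads in any other library. LN-18 and T98G were each above SNU-1105, the next line (log2 fold change 6.82 and 6.75, adjusted p = 7.43e-08 and 9.55e-08; 68.2% and 59.5% of genes called). BARX1, a factor of stomach mesenchyme, was at 1.67 ± 0.135 FPKM in LN-18 and had 0 reads in T98G. MEOX2 was at 0.544 FPKM in LN-18 and 51.1 FPKM in U-138MG, and WNT2, a ligand of lung mesenchyme, at 0.0117 FPKM in LN-18 and 1.57 FPKM in KALS-1. Of the 21 genes of the list 4 had a row, and edgeR called 3 higher in LN-18 and 1 in T98G, where 31.0% and 20.7% of all tested genes were called higher. It also called 3 higher in KALS-1, where FOXF1 was low and 24.1% of tested genes were called higher. A line with 0 reads leaves edgeR without a finite mean to compare against, so limma on log2 CPM was set beside it, and it called 3 higher in LN-18, and 1 higher and 3 lower in T98G. By limma 27.6% of tested genes were higher and 38.7% lower in LN-18, and 17.7% higher and 47.6% lower in T98G.

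Other forkhead genes did not follow FOXF1 as a group. Of 18 genes, 4 had a row. FOXA2, a factor of endoderm, was at 2.02 ± 0.298 FPKM in LN-18 (94 and 119 reads), at 2 and 2 reads in T98G and at 0 reads in the other 6 lines. It was called higher in LN-18 by both edgeR and limma, and in T98G by edgeR but not by limma. FOXJ1, which controls motile cilia, was highest in LN-229 (9.25 FPKM) and KNS-42 (3.32 FPKM), FOXS1 in KALS-1 (7.55 FPKM) and FOXP2 in U-138MG (0.604 FPKM). In LN-18 and T98G these 3 genes were each at 0.0300 FPKM or less.

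Markers of other cell types differed among the same lines, mostly without following the pair, and their part in the result was not tested. Of 12 endothelial genes, 3 had a row (KDR, PDGFB and S1PR1), and their summed level was 15.9 and 15.4 CPM in LN-18 and 6.68 and 4.85 CPM in T98G, against 1.31 CPM in the lowest library of the other lines, in U-138MG, and 104 CPM in the highest, in SNU-1105. Of these genes PDGFB, a growth factor gene, was called higher in LN-18 and T98G (log2 fold change 4.58 and 1.9). It was also called higher in KALS-1 and KNS-42 (6.16 and 2.17), where 24.1% and 33% of tested genes were. The T98G call came from 96 and 10 reads, and limma called 0 of the 3 genes higher in that line. S1PR1 was called lower in LN-18 (-1.76) and KDR lower in T98G (-4.97). Of 5 epithelial genes, 4 had a row, at a summed 359 and 378 CPM in LN-18, 124 and 66.5 CPM in T98G, 255 and 238 CPM in KALS-1, and at most 70.0 CPM in every library of the other lines. The only listed fibroblast gene, the mesenchymal factor PRRX1, was at 0 and 0.102 CPM in LN-18 and 0.795 and 2.51 CPM in T98G, and at 56.2 CPM or more in every library of the other 6 lines. Of 5 immune genes, 3 had a row, at a summed 2.19 and 2.34 CPM in LN-18 and 0.477 and 0.526 CPM in T98G, against 0.720 CPM in KNS-42 at the lowest and 26.6 CPM in SNU-1105 at the highest. None of the 11 genes of the Polycomb and Trithorax complexes that were looked for had a row in the 8-line table.

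The genes most like FOXF1 over the 8 lines were PITX1, a homeobox factor of the hindlimb (Pearson r of line means of log2(CPM + 0.5), 0.946), the reductase gene PTGR1 (0.931), TRIM16L (0.930), the nuclear receptor gene NR2F1 (0.920) and the receptor gene GPR183 (0.894). PITX1 was at 42.8 FPKM in LN-18, 22.7 FPKM in T98G and 13.1 FPKM in KNS-42, and at 0.969 FPKM in U-138MG. FENDRR held place 17 among 2094 genes, with r = 0.873, and place 37 with Spearman's rho or place 10 with a pseudocount of 2. From the side of FENDRR, FOXF1 held place 103, behind KCNJ4 (0.990), which never exceeded 0.174 FPKM, LINC02669 (0.985), the scavenger receptor gene OLR1 (0.985), GLP2R (0.984) and the amino acid transporter gene SLC7A2 (0.981). OLR1 was at 14.1 FPKM in LN-18 and 11.3 FPKM in T98G and at most 0.479 FPKM elsewhere. Of the 2094 genes, 77 had r of at least 0.9 with FENDRR, so a profile like its own was not particular to the locus. The r of the pair rests on LN-18 and T98G: without them it was 0.351 over 6 lines, and FENDRR held place 470. These r values describe 8 line means from a table in which nearly all genes differ, and carry no test.

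Against other divergent pairs, FOXF1 and FENDRR were in the middle for likeness and first for the level of the noncoding RNA. The table holds 14 tested pairs of a coding gene and a noncoding RNA, head to head on opposite strands, with annotated starts at most 5000 bases apart. Their r ran from -0.128 (IL17B and CARMN) to 0.999 (SOX21 and SOX21-AS1), with a median of 0.891, and FOXF1 and FENDRR held place 8. FENDRR reached 48.1 FPKM in its highest line, against 13.6 FPKM for SOX21-AS1, the next of the 14 noncoding RNAs. In all 14 pairs the noncoding RNA reached a mean of 1 FPKM in fewer lines than its coding partner, so a coding gene on without its partner was not particular to FOXF1. FOXF1 reached that mean in 5 lines and FENDRR in 2.

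**Figure D5:**
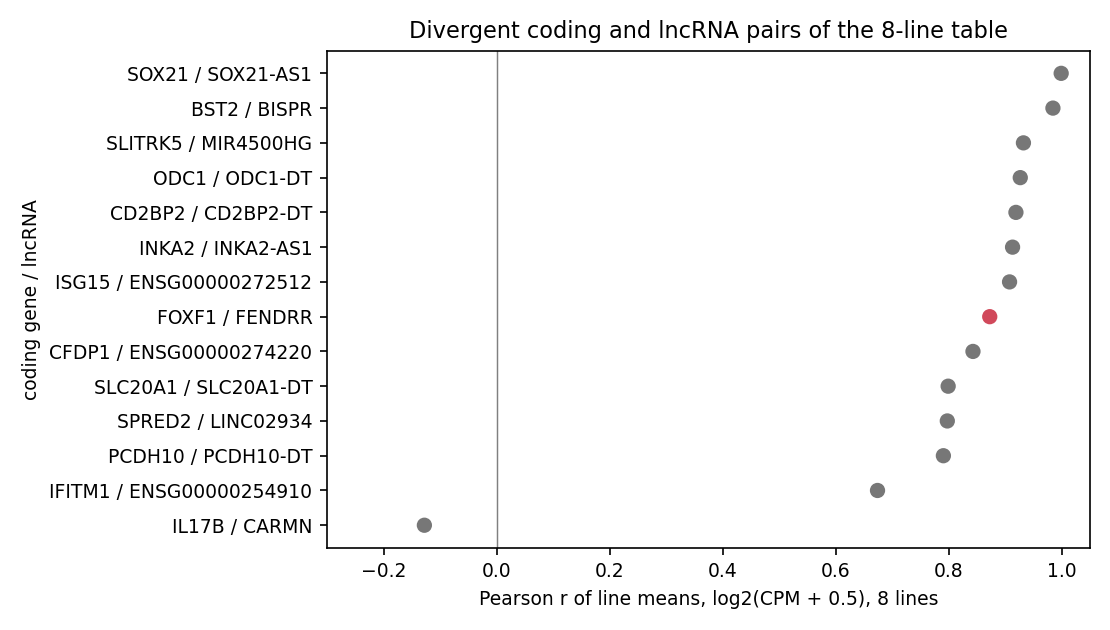
Pearson r between line means (log2(CPM + 0.5), 8 lines) of the coding gene and the noncoding RNA in 14 divergent pairs of the table, sorted by r. FOXF1 and FENDRR (red) are in place 8 with r = 0.873.

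In the 3 lines of the second table FOXF1 was on throughout, and it was called as differing among them, where 96.7% of the 5035 tested genes were called. It was at 8.59 and 8.66 FPKM in A-172, 4.73 and 4.76 FPKM in AM-38 and 1.81 and 2.13 FPKM in SNU-466, with no overlap between lines. A-172 was above SNU-466 (log2 fold change 2.12, SE 0.12, adjusted p = 6.89e-30; 84.7% of genes called) and AM-38 was above SNU-466 (1.26, SE 0.12, adjusted p = 9.91e-16; 91.7% called). A-172 and AM-38 differed by less than the fold threshold (0.86, SE 0.10, adjusted p = 5.99e-13; 48.6% called). These levels lie between those of T98G and KALS-1 in the 8-line table, a placing across tables that was not tested.

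Most listed Hedgehog genes were called higher in SNU-466, the line with the least FOXF1. Of 17 genes, 11 had a row, and in SNU-466 9 were called higher and 1 lower than the mean of the other lines, where 38.7% of tested genes were called higher and 55.2% lower. The median log2 fold change was 1.83 for the 11 genes and -1.46 for all tested genes. The co-receptor gene GAS1 was at 23.1 FPKM in SNU-466, 1.22 FPKM in A-172 and 0.0305 FPKM in AM-38, and SMO, the signal transducer, at 24.3, 12.1 and 3.89 FPKM in the same order of lines. GLI3 was at 14.8 FPKM in SNU-466 and about even in A-172 and AM-38 (3.04 and 3.36 FPKM). HHIP, which sequesters the ligands, was the 1 gene called lower, at 0.00213 FPKM in SNU-466 (0 and 1 reads), 0.0950 FPKM in A-172 and 6.90 FPKM in AM-38. Of the 21 genes of gut and lung mesenchyme, 8 had a row, and 6 were called higher and 2 lower in SNU-466. With 108 or more FOXF1 reads in each of these 6 libraries, the count behind each level was well above the floor of 3. Markers of other cell types differed among the same lines, and their part in the result was not tested. The summed level of the 5 fibroblast and mural genes with a row, of 8, was 10620 and 10606 CPM in SNU-466, 164 and 157 CPM in A-172, and 93.1 and 92.4 CPM in AM-38. That of the 4 glial and neural genes with a row, of 9, was 2243 and 2238 CPM in SNU-466, 335 and 324 CPM in A-172, and 135 and 137 CPM in AM-38. The 2 epithelial genes with a row, of 5, summed to 0.413 and 0.611 CPM in SNU-466, 1997 and 1918 CPM in A-172, and 304 and 281 CPM in AM-38, the order of the lines by FOXF1. The 6 endothelial genes with a row, of 12, summed to 165 and 163 CPM in SNU-466, 61.4 and 55.1 CPM in A-172, and 25.6 and 25.7 CPM in AM-38. The 2 immune genes with a row, of 5, summed to at most 3.17 CPM in any of these libraries. Of the 11 Polycomb and Trithorax genes, 1 had a row here. This gene, SUZ12, was at 30.5 FPKM in A-172, 10.8 FPKM in AM-38 and 6.57 FPKM in SNU-466.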

How the data were processed

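Poly(A) RNA of 11 untreated lines was sequenced strand-specifically. The authors deposited read counts, FPKM values and gene lengths per gene; the submitters' processing notes list HISAT2 2.2.1, StringTie 1.3.3, HTSeq 0.6.0, cutadapt 1.9.1 and FastQC 0.10.1 with hg38, in no stated role or order. Which annotation they counted against, and whether the counting used the strand, is not stated. Library totals were worked back from the deposited counts, lengths and FPKM, and returned the deposited FPKM within 0.01 for at least 99.91% of genes. CPM and FPKM in the text use these totals. Names were matched for 2220 of 2221 and 5382 of 5383 genes.

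The deposited counts were tested with edgeR 4.0.16 (quasi-likelihood test, library totals as offsets, low-count filter), which gave every SE and adjusted p. TMM, RLE, DESeq2 1.42.0, limma 3.58.1 (prior count 2), no filter, a replicate block and leaving out each library were alternatives. The 2 tables were fitted separately. Ratios were tested by an exact permutation test over libraries (scipy 1.17.1). The genes named are the pair, its neighbours within 1 Mb, up to 4 genes of each list with the largest range of line means, and the 5 genes most like each member. The members and lists were chosen with earlier results of these data known. Libraries with the same number in different lines did not deviate together (r over 0.1 in 0 of 28 line pairs), so the numbers were not taken as pairs.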

Additional observations from a re-analysis of the deposited data

How the results depend on the processing

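Of 268 alternatives to the 18 main results, 266 kept direction and side of the threshold or, for counts and places, stayed within 1.5 times; among these, on at 2 FPKM gave 2 lines with FOXF1 alone on and 4 with neither. With CPM in place of FPKM, 1 line, KALS-1, had FENDRR on without FOXF1. Without LN-18 and T98G, an alternative chosen after seeing the data, the pair held place 13 of the 14 divergent pairs. Of 324 alternatives for single genes, 301 kept their call. Leaving out 1 library turned the sign of 3 contrasts that were not called: FOXF1 in SNU-1105 over U-87MG (-0.68 to 0.96; -0.68, adjusted p = 0.110, without SNU-1105 replicate 1), FENDRR in U-87MG over U-138MG (-0.0058 to 4.98; -0.0058, adjusted p = 1, without U-87MG replicate 1) and FENDRR in U-138MG over LN-229 (-2.27 to 3.13; -2.27, adjusted p = 0.557, without U-138MG replicate 2), and the cause was not tested. With a replicate block no call on the pair changed, and 25 and 23 of 28 line pairs were called for FOXF1 and FENDRR; the log2 ratio kept its range of 4.71 with p = 0.0417 in the exact permutation test, the smallest it allows. The named genes most like FENDRR depend on the measure: 0 of 5 were shared with Spearman's rho, 1 with a pseudocount of 2 and 2 with 0.1; for FOXF1, 3 were shared with Spearman's rho. The ratio at 50 reads or more gave no test, and starts nearer than the 1428 bases of this pair gave no place for it. Depth limits FENDRR in SNU-1105, U-87MG, U-138MG and LN-229, which had at most 10 reads per library.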
